A study of Caenorhabditis elegans with 18 samples.

Results

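Long unnamed intervals of chromosomes II, III and V carried a large share of the small RNAs bound by the Argonautes WAGO-1 and WAGO-3, and their share in the WAGO-1 IP was much smaller when the gene dpf-3 was deleted. The deposited count table has, beside genes, intervals known only by a chromosome, a start, an end and a strand. Taken here were all intervals on these 3 chromosomes, on both strands, whose end minus start (called the length below) was 500 bases or more. The rule used no measured value. It gave 1870 of the table's 55259 intervals (3.38%), with 487 on chromosome II, 572 on III and 811 on V. Coordinates are those of the deposited table, on build ce11, and whether they count from 0 or 1 is not given in the sources used here.

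Small RNAs were sequenced from whole worms (Caenorhabditis elegans) at larval stage L4, the last before adulthood, grown at 15 °C, in 18 libraries of 6 groups of 3. The groups were IPs (RNA recovered with anti-FLAG beads) from 1xFLAG::WAGO-1 worms with a dpf-3 deletion, from 1xFLAG::WAGO-3 worms and from 1xFLAG::WAGO-1 worms, and the input (total RNA) of each of these strains. Every strain thus carried a FLAG tag on an Argonaute, the dpf-3 gene was intact in the 1xFLAG::WAGO-3 and 1xFLAG::WAGO-1 strains, and an IP from an untagged strain is not analysed here. Enrichment of small RNAs by a kit was used for inputs and not for IPs, per the labels, so an IP and its input also differ in that step. Nothing in the labels says whether the letters A, B and C stand for separate cultures, so p-values measure the spread between these samples, which may be technical.

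WAGO-1 and WAGO-3 belong to the worm-specific Argonautes, proteins that hold short guide RNAs made by RNA-dependent RNA polymerases from target transcripts. These guide RNAs are antisense to their targets and begin mostly with a guanosine, and they take part in silencing genes, pseudogenes and transposons in the germline. The gene dpf-3 encodes a dipeptidyl peptidase, an enzyme that trims dipeptides from the N-terminus of proteins, and by its title the study is about how proteases process Argonautes. The comparisons ask which small RNAs from these intervals each Argonaute holds, and how this differs when dpf-3 is deleted. No genome sequence was used here, so nothing below rests on the sequence of an interval.

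IP libraries had 2206087 to 5649896 counts in features (genes and intervals together) and inputs 88761 to 517278, so input levels of weakly covered intervals are far less precise. Small RNA reads over dpf-3 itself came to 6 in the deletion inputs (8.22 ± 4.06 CPM, counts per 1000000 of the scaled library, SD, n = 3), against 39 in the WAGO-1 inputs (28.6 ± 7.35 CPM; edgeR adjusted p = 0.0199). In the IPs they came to 51 in the deletion (3.00 ± 1.34 CPM) and 30 in the intact strain (4.24 ± 1.41 CPM), which was not called (edgeR adjusted p = 0.186). These reads are not its messenger RNA, so they are a weak check of the genotype. Replicate A stood apart from B and C in both WAGO-1 groups of IPs: the chi-square per degree of freedom over features was 3.97 and 2.74 for A against B and C in the deletion IP, where B against C gave 1.33. In the WAGO-1 IP the values were 5.13 and 7.30, where B against C gave 1.58.

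Most of the 1870 intervals had few reads. No read fell in 266 of them, the median total over 18 libraries was 10 counts, and 404 (21.6%) passed the filter on low counts and were tested. An interval could pass through the group in which it was high, so counts over the 404 describe the covered intervals and not all 1870. These 404 held 99.5% of the 5092167 counts in long intervals. The highest 1 held 8.48% of the counts, the highest 10 held 44.5% and the highest 50 held 79.1%. Of the shorter intervals on the same chromosomes, 379 of 28000 (1.35%) passed the filter. Just inside the length threshold, 6 of 65 intervals from 500 to under 510 bases passed, with a median total of 2 counts, and just outside it 5 of 63 from 490 to under 500 bases, with a median of 3.

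Chromosome V held 74.6% of the counts in 199 tested intervals, chromosome II 16.1% in 117 and chromosome III 9.25% in 88. The plus strand had 51.8% of the counts and the minus strand 48.2%. Length mattered for coverage: 98 of the 151 intervals of 2000 bases or more were tested and held 67.2% of the counts, whereas 77 of the 855 under 700 bases were tested and held 4.80%. Against the RefSeq gene table of WBcel235 (another name of build ce11), 1073 intervals lay inside a protein-coding gene or pseudogene on either strand, 70 lay partly over such a gene, 19 lay only over genes of other kinds and 708 lay over no annotated gene. These classes held 31.4%, 21.6%, 13.2% and 33.8% of the counts. The table gives no exons, so whether an interval is exonic or intronic was not determined.

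The long intervals took 6.25%, 6.30% and 6.31% of feature counts in the deletion IPs (A, B and C), against 19.5%, 19.2% and 19.1% in the WAGO-1 IPs. Each deletion library was thus far below each library of the intact strain, with means of 6.28% ± 0.033 in the deletion IP and 19.3% ± 0.229 in the WAGO-1 IP (SD, n = 3 each), a ratio of 0.326. Fewer cells of a type and less RNA per cell cannot be told apart in whole animals, here or in any comparison below. The inputs showed the same difference, with 3.99% ± 0.090 in the deletion input and 16.0% ± 0.139 in the WAGO-1 input, a ratio of 0.249. The WAGO-3 IP held 13.4% ± 0.084 and its input 7.89% ± 0.193. The share was larger in the IP than in the input of every strain, by 1.57 times in the deletion, 1.69 times for WAGO-3 and 1.2 times for WAGO-1. In none of these 5 comparisons did the groups overlap, and the two-sided exact permutation test gave p = 0.1 in each, the smallest value that 3 against 3 allows. Within the table the fall was not particular to these chromosomes: long intervals on I, IV and X held 3.30% in the deletion IP and 8.18% in the WAGO-1 IP, while annotated genes held 88.0% in the deletion IP and 68.8% in the WAGO-1 IP.

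**Figure D1:**
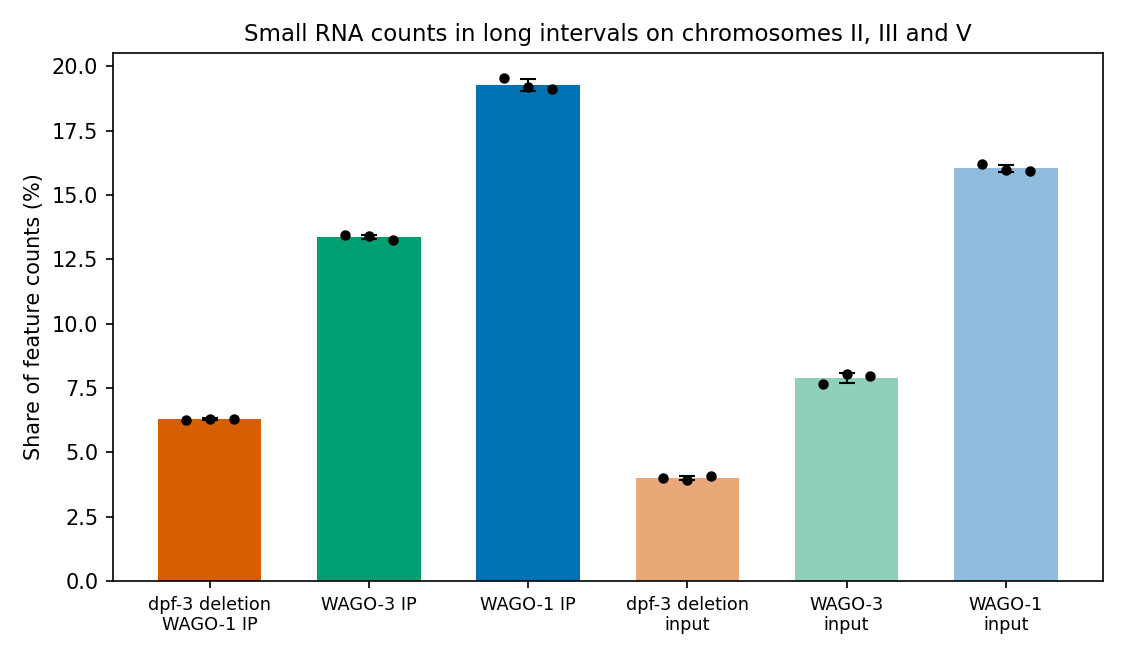
Share of all feature counts (vertical axis, percent) that fell in long intervals on chromosomes II, III and V, by group. Bars are means, error bars SD and points the 3 libraries of each group. The deletion IP (6.28%) and deletion input (3.99%) lie below the other groups, and each IP lies above the input of its strain.

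Most covered long intervals had a lower relative level of small RNA in the WAGO-1 IP when dpf-3 was deleted. Of 404 tested intervals, 357 were lower and 3 higher in the deletion IP than in the WAGO-1 IP (edgeR quasi-likelihood test, Benjamini-Hochberg adjusted p under 0.05 over all 11648 features tested). Of all tested features, 31.8% were lower and 30.6% higher. Levels and folds are on the TMM scale, which assumes that most features do not differ, and levels are given as CPM. With 31.8% of features called lower and 30.6% higher, the calls of this contrast do not meet that assumption. The median log2 fold of the long intervals was -2.40, against 0.07 over all features, and the quartiles were at -3.44 and -1.26. With total feature counts as the scaling, all folds shift by a median of 1.12, and 285 were lower and 47 higher, against 16.9% lower and 69.2% higher of all features. With all counted reads as the scaling, 274 were lower and 58 higher, against 15.7% and 71.7% of all features. In 358 intervals every deletion library lay below every WAGO-1 library, and in 5 every deletion library lay above. The same was not counted over all features, so these 2 numbers describe the long intervals only and do not set them apart.

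The fall was seen on each chromosome and in each length class, with medians of -2.66 on chromosome V, -2.0 on III and -1.73 on II. By length the median was -3.24 from 500 to under 700 bases, -1.82 to under 1000, -2.30 to under 2000 and -1.91 from 2000 bases on. Long intervals on the other chromosomes gave a median of -2.23, with 363 lower and 4 higher of 394, and short intervals on II, III and V gave -1.59, with 293 lower and 20 higher of 379. Annotated genes gave 0.23, with 2226 lower and 3502 higher of 9869. Differences between these sets were not tested.

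**Figure D2:**
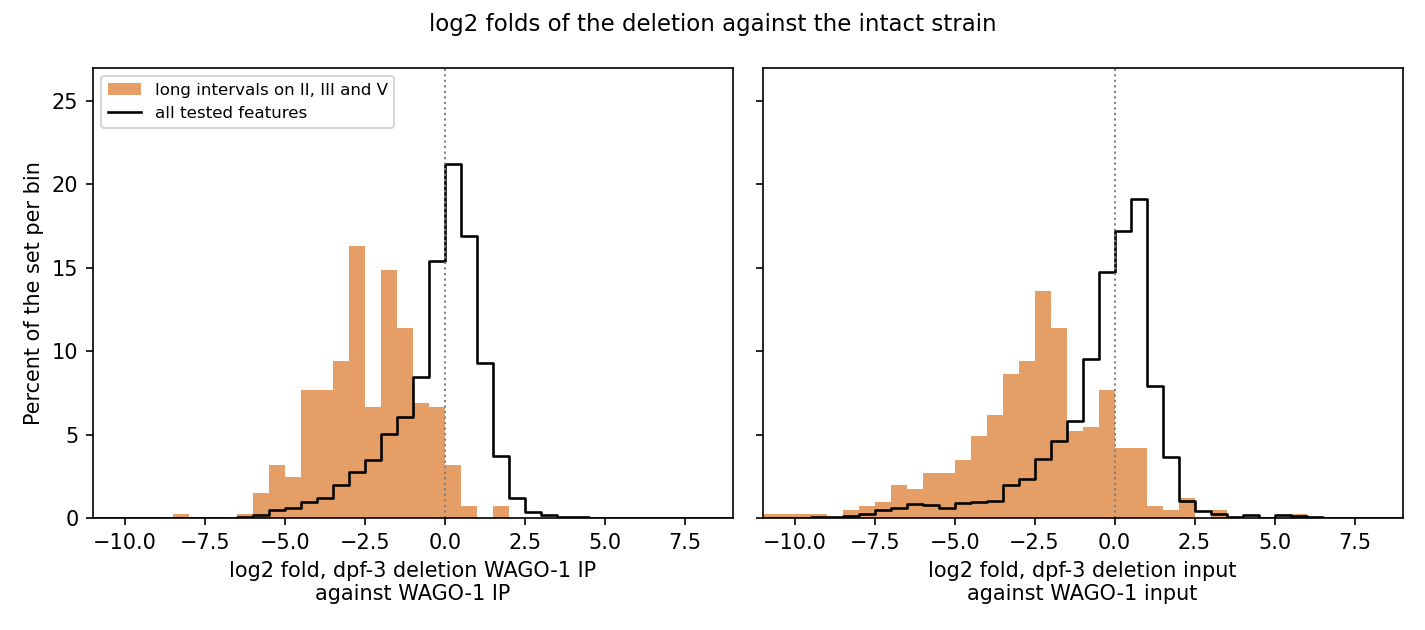
Distribution of log2 folds (horizontal axis) of the deletion against the intact strain in the WAGO-1 IPs (left) and the inputs (right), as percent of each set per bin of 0.5. Filled bars are the 404 tested long intervals on II, III and V and the line all 11648 tested features. The long intervals centre at -2.40 in the IPs and -2.37 in the inputs, and all features at 0.07 and 0.02.

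The highest interval was V:17132108-17137381 on the minus strand, 5273 bases long and over the annotated noncoding gene Y102A5D.22, with 431834 counts. Its level was 1602, 1676 and 1656 CPM in the deletion IPs (A, B and C), against 26619, 25214 and 24690 CPM in the WAGO-1 IPs. The deletion libraries lay far below, and the log2 fold was -3.96 ± 0.07 (SE), or 15.5-fold lower (edgeR adjusted p = 3.28e-89). The WAGO-3 IPs had the highest level of all groups, with 52668, 51634 and 49368 CPM. Inputs stood at 372, 370 and 457 CPM in the deletion, 7585, 8870 and 8117 CPM in the WAGO-3 strain and 7385, 7639 and 7529 CPM in the WAGO-1 strain. Levels in the WAGO-3 and WAGO-1 inputs were thus close to each other, while those of their IPs did not overlap.

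Next to it on the same strand lies V:17137383-17141676 (4293 bases, over the microRNA gene mir-257). It had 777, 778 and 833 CPM in the deletion IPs, against 24292, 23447 and 23355 CPM in the WAGO-1 IPs. This was the steepest fall of the 10 highest intervals, with a log2 fold of -4.90 ± 0.08, or 29.8-fold lower (edgeR adjusted p = 1.01e-96). Unlike its neighbour it was lower in the WAGO-3 IPs (10860, 10947 and 10216 CPM) than in the WAGO-1 IPs, and it stood at 1648, 1845 and 1703 CPM in the WAGO-3 inputs, against 9194, 9696 and 9546 CPM in the WAGO-1 inputs. Together with 3 further tested intervals these formed a run from V:17126624 to V:17157642 that held 17.8% of all counts in long intervals. The run summed to 4025 ± 41.5 CPM in the deletion IP, 81991 ± 2222 in the WAGO-3 IP and 67432 ± 2258 in the WAGO-1 IP (SD, n = 3 each).

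The smallest fall among the 10 highest was in V:11487340-11488176 (plus strand, 836 bases), which lies inside the protein-coding gene T11F9.10. It had 6171, 6347 and 6258 CPM in the deletion IPs, against 16509, 15943 and 15647 CPM in the WAGO-1 IPs. The groups did not overlap and the log2 fold was -1.36 ± 0.06 (edgeR adjusted p = 2.57e-42), but with all counted reads as the scaling it was -0.09 and not called (adjusted p = 0.42). It was by far the shortest of the 10. Per kb, its mean level over the 6 groups was 8468 CPM, the highest of the 10, against 384 to 4433 CPM per kb in the other 9.

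The other 7 of the 10 highest are V:18436471-18442343 (over the protein-coding genes ZK262.8 and ZK262.9 and the pseudogene ZK262.15), V:17421682-17428709 (over no gene), V:5180270-5183550 (inside C03A7.13), V:17142308-17143636 (no gene), V:791402-797900 (no gene), III:13230129-13242682 (partly over Y43F4A.3) and V:19270582-19281574 (partly over F21D9.8). Their log2 folds between the deletion IP and the WAGO-1 IP lay between -4.21 and -3.08. In V:791402-797900, for example, the level was 1100, 1029 and 1067 CPM in the deletion IPs, against 21177, 19182 and 18728 CPM in the WAGO-1 IPs (log2 fold -4.21 ± 0.07). In V:18436471-18442343, where replicate A of the WAGO-1 IP was the highest library, it was 2991, 2536 and 2618 CPM in the deletion IPs, against 27527, 21292 and 20234 CPM in the WAGO-1 IPs (-3.08 ± 0.08). No library of the deletion overlapped a WAGO-1 library in any of the 10, in the IPs or in the inputs.

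**Figure D3:**
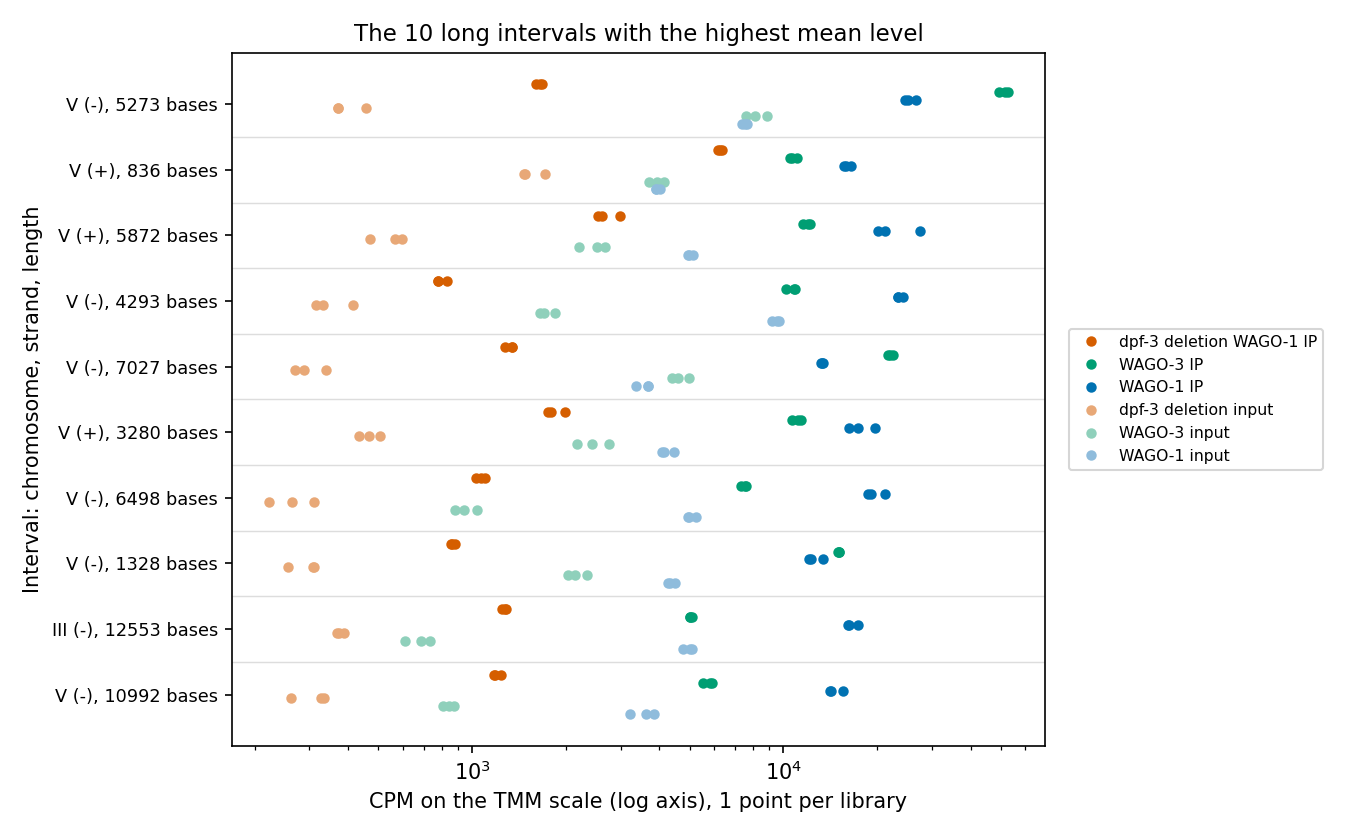
Level of the 10 highest long intervals (CPM, log axis), with 1 point per library and the intervals named by chromosome, strand and length. Deletion libraries lie left of the WAGO-1 libraries of the same kind in all 10. The WAGO-3 IP is the highest group for the intervals of 5273, 7027 and 1328 bases, and the WAGO-1 IP for the other 7.

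The steepest falls of all were in less covered intervals, several of them on chromosome III. III:6630737-6631713 (plus strand, 976 bases, no annotated gene) had 0.834, 1.91 and 1.18 CPM in the deletion IPs, against 374, 395 and 396 CPM in the WAGO-1 IPs. It was nearly absent from the deletion IP, 292-fold lower (log2 fold -8.19 ± 0.15, edgeR adjusted p = 3.88e-87). The interval just before it, III:6630161-6630725, also fell, with 2.50, 4.45 and 2.86 CPM in the deletion IPs, against 108, 139 and 131 CPM in the WAGO-1 IPs (-5.29 ± 0.15). III:5360305-5360866 had 14.3, 15.7 and 17.6 CPM in the deletion IPs, against 1368, 1126 and 1049 CPM in the WAGO-1 IPs (-6.20 ± 0.10). V:18120789-18121360, inside the pseudogene Y37H2A.16, had 26.9, 26.5 and 28.9 CPM in the deletion IPs, against 1389, 1442 and 1421 CPM in the WAGO-1 IPs (-5.69 ± 0.09). In these 4 the libraries of each group lay close together and far from the other group. III:7473935-7474566, III:6917068-6920274 and III:10845532-10847591, all over no annotated gene, had log2 folds of -5.89, -5.86 and -5.67.

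The 3 intervals called higher in the deletion IP were II:3172281-3177794, II:666438-667031 and III:3896497-3897712. The first (minus strand, 5513 bases, no gene) had 38.0, 38.5 and 37.5 CPM in the deletion IPs, against 18.8, 11.4 and 8.98 CPM in the WAGO-1 IPs. Its groups did not overlap, and the log2 fold was 1.65 ± 0.17 (edgeR adjusted p = 9.24e-16). The second had 43.7, 45.1 and 45.5 CPM in the deletion IPs, against 39.7, 34.3 and 35.9 CPM in the WAGO-1 IPs, a log2 fold of 0.31 ± 0.13 (edgeR adjusted p = 0.032). That call was lost with DESeq2 (0.17, adjusted p = 0.28) and without replicate B (0.31, adjusted p = 0.055) or C (0.29, adjusted p = 0.081) of the deletion IP. The third, inside tir-1 (a gene for a TIR-domain adaptor protein of neurons and immunity) and named only because it completes the 3, had 3.50, 9.96 and 7.89 CPM in the deletion IPs, against 2.17, 3.81 and 4.49 CPM in the WAGO-1 IPs, and these overlap.

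In total small RNA the relative level of these intervals fell in the same way. In the deletion input 253 of the 404 intervals were lower than in the WAGO-1 input and 0 were higher, against 14.9% lower and 8.61% higher among all features (edgeR). At an unadjusted p under 0.05, 272 were lower and 7 higher, and DESeq2 called 253 lower and 0 higher. Shares of all features are not given for either, so these counts describe the long intervals only. The median log2 fold was -2.37, against 0.02 over all features. With total feature counts as the scaling, 214 were lower and 21 higher, against 10.2% and 29.1% of all features. Of the 357 intervals lower in the deletion IP, 251 (70.3%) were also lower in the deletion input, and these made up 99.2% of the 253 lower there. As the IP list held most of the 404, a large overlap had to arise, and it was not counted over all features.

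Several intervals had no read in any deletion input. III:6630161-6630725 had 0 counts there, against 111, 104 and 105 CPM in the WAGO-1 inputs. Bounds were taken from counts summed over the 3 libraries of a group, with 3 counts over the deletion inputs as the floor (4.04 CPM). From 154 counts in the WAGO-1 inputs it was at least 26.2-fold lower in the deletion input. V:797901-798444 likewise had 0 counts, against 67.3, 109 and 101 CPM (142 counts) in the WAGO-1 inputs, at least 24.2-fold lower. V:17650697-17653244 had 0, against 84.1, 72 and 63 CPM (104 counts) in the WAGO-1 inputs, at least 17.7-fold lower. None of the 3 overlaps an annotated gene, and all 3 had reads in the deletion IP, where levels lay between 2.50 and 26.9 CPM. Floors cover counting error only.

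On the TMM scale, most covered long intervals were enriched in the IPs over the inputs of the same strain. In the deletion IP 214 were higher than in the deletion input and 14 lower (median log2 fold 1.59), in the WAGO-3 IP 335 and 17 (2.39), and in the WAGO-1 IP 335 and 15 (1.74). Among all tested features 32.9% were higher and 21.2% lower in the deletion (edgeR), 34.8% and 26.8% for WAGO-3, and 43.2% and 24.9% for WAGO-1, with medians of 0.40, 0.23 and 0.52. These splits depend on the scaling. With total feature counts they were 108 higher and 53 lower in the deletion, 200 and 38 for WAGO-3, and 140 and 93 for WAGO-1. At that scaling, all features gave 12.8% higher and 37.0% lower in the deletion, 10.2% and 52.1% for WAGO-3, and 12.3% and 48.8% for WAGO-1. Of the 335 higher in the WAGO-3 IP and the 335 higher in the WAGO-1 IP, 304 were shared (90.7% of each list). All 3 IPs had 196 in common, 48.5% of the tested intervals. The lists of WAGO-3 and WAGO-1 each held most of the tested intervals, so their overlap had to be large. Overlaps were not counted over all features.

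Among the highest 10, every interval was called higher in each IP than in its input. V:791402-797900, for instance, had 7574, 7532 and 7308 CPM in the WAGO-3 IPs, against 882, 945 and 1037 CPM in the WAGO-3 inputs (log2 fold 2.97 ± 0.08). For WAGO-1 the same interval had 21177, 19182 and 18728 CPM in the IPs, against 4981, 5225 and 4927 CPM in the inputs (1.96 ± 0.07). Total-count scaling turned the direction for 2 of the 10: V:17137383-17141676 in WAGO-1 (1.32 ± 0.07, or -0.14) and V:11487340-11488176 in WAGO-3 (1.45 ± 0.07, or -0.18). For V:17142308-17143636 in WAGO-1 (1.53 ± 0.07) it ended the call (0.07, adjusted p = 0.31). A large fold with good coverage was that of V:3935082-3935619 in WAGO-1, with 3141, 2035 and 1871 CPM in the IPs against 215, 265 and 225 CPM in the inputs (3.29 ± 0.11). In WAGO-3, V:19281575-19282111 had 474, 446 and 478 CPM in the IPs against 29.8, 22.3 and 26.1 CPM in the inputs (4.17 ± 0.19). Its WAGO-3 input was thinly covered, so the size of that fold is uncertain. V:19270045-19270581, of the same length and near-equal count, had 45.1 CPM in the WAGO-3 input and 464 CPM in the WAGO-3 IP (means).

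A few intervals were depleted from all 3 IPs. V:4301284-4310683 (minus strand, 9399 bases) lies inside the pseudogene ZC132.2 and also spans the transfer RNA gene ZC132.t1 and the noncoding gene ZC132.10. It had 124, 137 and 144 CPM in the deletion IPs against 410, 380 and 394 in the deletion inputs, 96.3, 96.2 and 77.7 in the WAGO-3 IPs against 348, 419 and 483 in the WAGO-3 inputs, and 186, 205 and 198 in the WAGO-1 IPs against 447, 453 and 525 in the WAGO-1 inputs. No IP library reached an input library of its strain, and the log2 folds were -1.55 ± 0.12, -2.19 ± 0.12 and -1.27 ± 0.10 in that order of strains. V:4051532-4052132, inside the pseudogene C49G7.14, had 0.847 to 1.5 CPM in the deletion IPs against 19.2 to 55.3 in the inputs, 1.01 to 3.68 in the WAGO-3 IPs against 29.8 to 65.2, and 0.722 to 0.761 in the WAGO-1 IPs against 26.9 to 32.3. Its log2 folds were -4.97, -3.93 and -5.24, and it was not called between the genotypes in the IPs (0.70 ± 0.68, edgeR adjusted p = 0.378) or the inputs (0.43 ± 0.37, adjusted p = 0.456).

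The change in enrichment between the genotypes, meaning the log2 fold of IP over input in the deletion minus that in the intact strain, was called higher for 2 and lower for 7 of 404 (edgeR), against 1.55% higher and 0.661% lower of all features, with medians of 0.00 and 0.10. At an unadjusted p under 0.05 there were 26 higher and 30 lower. The split of the long intervals turns with the scaling, while over all features higher calls were the more frequent at each scaling given here. With total feature counts 41 (10.1%) were higher and 1 lower, against 7.41% and 0.378% of all features. With all counted reads 134 (33.2%) were higher and 1 lower, against 33.2% and 0.172% of all features. Without replicate A, B or C of the WAGO-1 IP, 70, 65 and 68 were higher and 1, 1 and 0 lower. Shares of all features are not given for these fits or at the unadjusted p, so those counts do not set the long intervals apart.

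Of the 9, II:3354125-3356987 (minus strand, 2862 bases, inside bath-29, a gene of the MATH and BTB domain family) had the smallest p. It was not called between the IPs, with 1561, 1488 and 1470 CPM in the deletion IPs and 1508, 1481 and 1470 CPM in the WAGO-1 IPs (log2 fold 0.02 ± 0.07, edgeR adjusted p = 0.819). In the inputs it stood at 609, 550 and 634 CPM in the deletion and 938 to 1005 CPM in the WAGO-1 strain (-0.71 ± 0.10). The change in enrichment was 0.73 ± 0.12 (edgeR adjusted p = 1.94e-06). The other interval called higher, III:6572490-6574774, changed by 1.78 ± 0.48 (edgeR adjusted p = 0.0183), a call lost without replicate A (1.97, adjusted p = 0.07), B (1.53, adjusted p = 0.15) or C (1.95, adjusted p = 0.072) of the deletion input. Of the 7 called lower, 6 meet the naming rule, and each of these 6 lost its call without replicate A, without B and without C of the WAGO-1 IP, with values from -1.71 to 0.10.

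The enrichment in the WAGO-3 IP over its input was higher than that in the WAGO-1 IP over its input for 141 intervals and lower for 26, against 12.4% higher and 15.0% lower of all features (edgeR). The median difference was 0.73, against 0.04 over all features. With total feature counts 116 were higher and 29 lower, against 9.72% and 17.2% of all features. With all counted reads they were 110 and 29, against 9.20% and 17.0%. Without the 88 intervals of near-equal length and count described below, 87 were higher and 16 lower.

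The strongest contrast with good coverage was III:3276149-3277198 (plus strand, 1049 bases), inside the protein-coding gene Y53G8AM.8. It had 96.3, 95.0 and 92.8 CPM in the WAGO-3 IPs, against 504, 600 and 577 CPM in the WAGO-3 inputs, a log2 fold of -2.57 ± 0.11. In the WAGO-1 strain it had 3348, 3591 and 3490 CPM in the IPs, against 518, 588 and 630 CPM in the inputs, a log2 fold of 2.57 ± 0.08. The inputs of both strains overlapped, while the WAGO-1 IP lay above its input and the WAGO-3 IP below, and the difference in enrichment was -5.14 ± 0.14 (edgeR adjusted p = 5.75e-68). It was among the least affected by the deletion, with 2795, 2896 and 2870 CPM in the deletion IPs (-0.29 ± 0.07 against the WAGO-1 IP, edgeR adjusted p = 9.02e-05). Counts given to the gene Y53G8AM.8 itself did not share this pattern. They averaged 749 ± 52.9 CPM in the WAGO-3 IP and 169 ± 20.4 in its input. In the deletion IP they averaged 143 ± 3.89 CPM, against 1181 ± 42.7 in the WAGO-1 IP (SD).

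The opposite pattern was seen in V:17514658-17519419 (plus strand, 4761 bases), inside srw-45, a pseudogene of a receptor family. It had 738, 669 and 671 CPM in the WAGO-3 IPs, against 119, 114 and 121 CPM in the WAGO-3 inputs. In the WAGO-1 strain it had 222, 251 and 250 CPM in the IPs, against 377, 393 and 376 CPM in the inputs. It was thus enriched with WAGO-3 (2.56 ± 0.12) and depleted with WAGO-1 (-0.66 ± 0.10), a difference of 3.22 ± 0.16 (edgeR adjusted p = 8.97e-39). Weakly covered intervals with a difference in the same direction were V:14359562-14361420 (4.03 ± 0.97), V:5777551-5778449, partly over the pseudogene F44E7.17 (3.57 ± 0.61), and II:10034106-10035001, inside let-268, a gene for a collagen-modifying hydroxylase (3.03 ± 0.56). In the other direction, II:7439552-7444215 had 1.91, 2.45 and 1.01 CPM in the WAGO-3 IPs, against 9.95, 9.92 and 9.79 CPM in the WAGO-3 inputs, and 39.7, 44.9 and 47.1 CPM in the WAGO-1 IPs, against 16.8, 10.3 and 12.6 CPM in the WAGO-1 inputs (-4.17 ± 0.78).

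Many long intervals came in groups of nearly the same length and nearly the same count. Among the 235 intervals with 1000 counts or more, 88 fell into 22 groups in which each member was linked to at least 1 other of the group by lengths that differed by at most 1 base and totals that differed by at most 5%. Linked in this way, a whole group could span more than these limits. These groups were defined after the values had been seen, and held 20.8% of the counts in long intervals. The same reads may be counted at several places, since the treatment of reads with several positions is not given in the sources used here, so members of a group are not independent of each other. The files do not name what the intervals are.

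A group of 8 plus-strand intervals of 2334 to 2337 bases, spread over all 3 chromosomes, had totals from 28693 to 29388. Their log2 folds between the deletion IP and the WAGO-1 IP lay between -1.20 and -1.14, and their WAGO-3 enrichment was below that of WAGO-1 in all 8 (-0.91 to -0.63). The 2 minus-strand intervals of 2336 bases had totals of 11329 and 11872 but the same pattern, with -1.15 and -1.13 between the IPs and -0.89 and -0.72 between the Argonautes. A group of 10 plus-strand intervals of 1610 to 1611 bases had totals from 7352 to 7963 and went the other way between the Argonautes, with differences of 1.80 to 2.24, all 10 called. The 6 minus-strand intervals of 1609 to 1610 bases had totals from 2512 to 2740 and differences of 1.63 to 2.13. Between the deletion IP and the WAGO-1 IP their log2 folds were -2.84 to -2.61 on the plus strand and -2.96 to -2.52 on the minus strand, below those of the first group. The 10 plus-strand intervals of 1239 to 1242 bases (totals 9662 to 10836) and the 16 minus-strand intervals of 1240 to 1242 bases (2900 to 3154) lay between, at -1.81 to -1.64 and -1.86 to -1.59. For all 3 lengths the plus-strand intervals had the larger totals, with ratios of the median totals of 2.51, 2.93 and 3.33 at about 2336, 1610 and 1241 bases. The strand setting of the counting is not given in the sources used here.

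**Figure D4:**
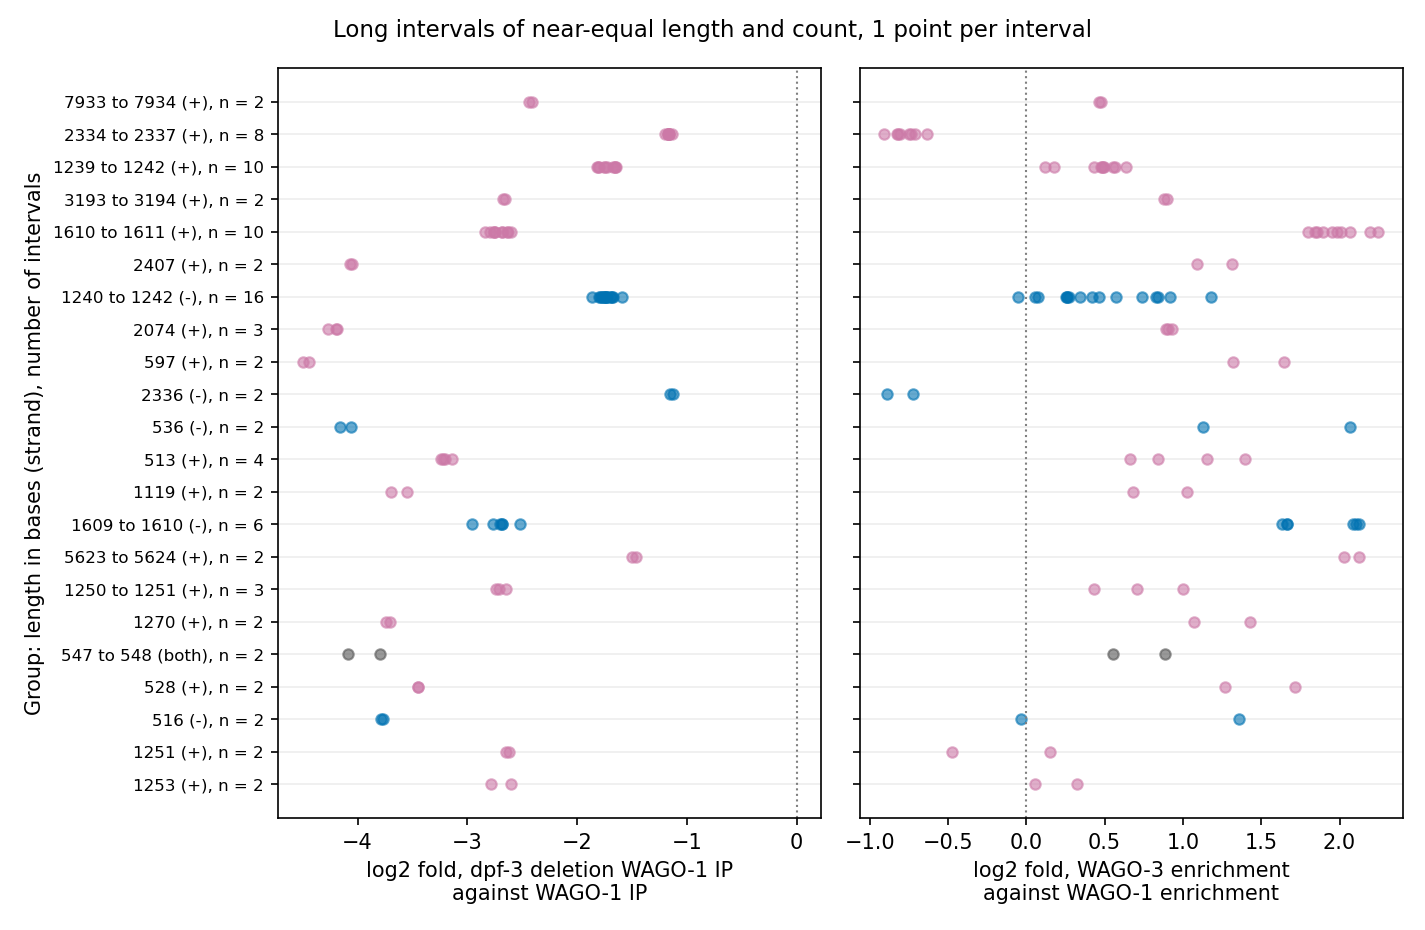
Log2 folds of the 88 long intervals in 22 groups of near-equal length and count, with 1 point per interval (pink plus strand, blue minus strand, grey both) and the groups ordered by their summed counts. All 88 lie below 0 between the deletion IP and the WAGO-1 IP (left). Between WAGO-3 and WAGO-1 enrichment (right) the intervals of 2334 to 2337 bases lie below 0 and those of 1609 to 1611 bases between 1.63 and 2.24.

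Tested intervals also lay close together: 132 formed 44 runs on 1 strand with gaps of at most 5000 bases. A pair of runs on the plus strand of chromosome V, V:8825452-8845311 and V:8867546-8887406, had 8 tested intervals each in the same order of lengths. The longest interval in each, 7933 and 7934 bases, had 115890 and 116963 counts. It stood at 1870 and 1859 CPM in the deletion IP, 3469 and 3533 CPM in the WAGO-3 IP and 9956 and 10079 CPM in the WAGO-1 IP. Both intervals fell in the deletion IP against the WAGO-1 IP (log2 folds of -2.41 and -2.44), but they may share reads and are then not independent. The second intervals differed, with 22015 counts over 2083 bases in the first run and 36838 over 2534 bases in the second.

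In 9 cases a long interval of 2000 bases or more lay between a pair of flanking intervals on its strand that touched it and differed in length from each other by at most 15 bases. Levels of the 3 with the most counts are given per kb, as means of 3 libraries. V:791402-797900, between flanks of 548 and 543 bases, had 46.7, 164 and 39.9 CPM per kb in the deletion IP (left flank, centre, right flank), 176, 1150 and 171 in the WAGO-3 IP, and 653, 3031 and 657 in the WAGO-1 IP. Its centre was denser than both flanks, and the flanks were alike. III:13230129-13242682, between flanks of 516 bases, had 50.5, 101 and 47.8 in the deletion IP, 150, 401 and 132 in the WAGO-3 IP, and 696, 1325 and 673 in the WAGO-1 IP. V:19270582-19281574, between flanks of 536 bases, showed the reverse, with 127, 109 and 120 in the deletion IP, 865, 523 and 870 in the WAGO-3 IP, and 2115, 1332 and 2162 in the WAGO-1 IP. The flanks were thus denser than the centre there, least so in the deletion. Where all 3 intervals were long, flanks and centre fell together in the deletion IP: the log2 folds were -3.80, -4.21 and -4.03 around V:791402-797900, -3.77, -3.71 and -3.79 around III:13230129-13242682, -4.06, -3.61 and -4.16 around V:19270582-19281574, and -4.41, -5.15 and -4.44 around II:10933243-10941800.

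**Figure D5:**
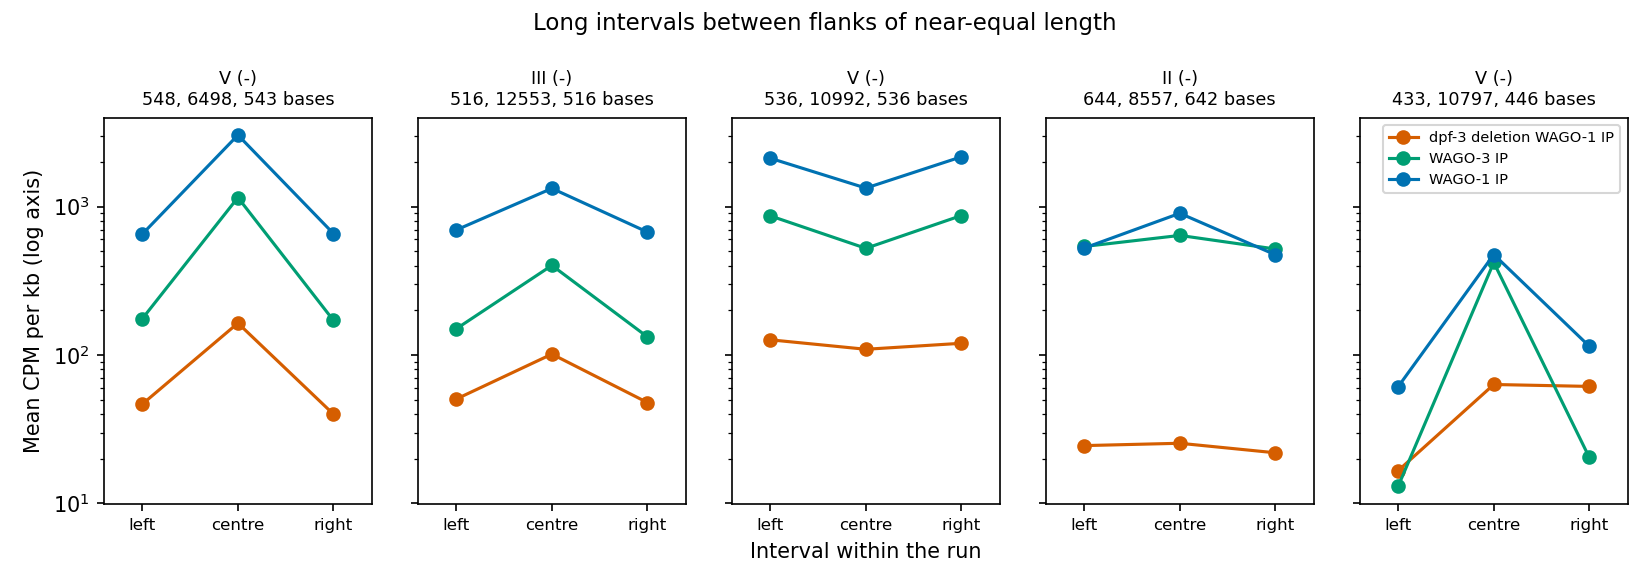
Mean CPM per kb (log axis) in the left flank, the centre and the right flank of the 5 best covered long intervals that lie between flanks of near-equal length, in the 3 IPs. The deletion IP lies below the WAGO-1 IP at each point. The centre is the densest of the 3 intervals in the WAGO-1 IP in 4 of the 5 panels, and the least dense in the V interval of 10992 bases.

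The longest interval, III:7405384-7443282 (37898 bases, partly over the long noncoding RNA gene linc-165), had 82 counts in all 18 libraries, and the shortest named here, II:13831870-13832370 (500 bases), had none. The commonest length was 790 to 791 bases, with 45 intervals, of which 0 were tested and whose totals ran from 2 to 126 counts.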

How the data were processed

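Per the submitters' processing notes, reads were processed with cutadapt 2.3, Bowtie 1.2.3, SAMtools 1.9 and HTSeq 0.11.2 on build ce11. Not given in the sources used here are the annotation, the strand setting, any use of molecular identifiers and how reads with several positions were treated. The deposited table holds raw read counts per feature, which the authors did not normalise, per the values: 20134 genes and 55259 intervals. Reads in no feature (32.5% to 38.6% of counted reads in IPs, 68.6% to 82.4% in inputs) and in several features (at most 0.176%) stayed out of library sizes and tests.

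From these counts, edgeR 4.0.16 (R 4.3.3) was run with filterByExpr at a minimum count of 10, TMM factors (0.434 to 2.37) and a quasi-likelihood model of the 6 group means over 18 libraries. The test was run over all 11648 features kept, with 7 contrasts and Benjamini-Hochberg adjustment over all of them. The standard error of a log2 fold is its size divided by the square root of F. Shares were compared with exact permutation tests. The pipeline was tested on simulated data. Members and lists were chosen with earlier results of these data known. Named intervals were the 10 highest, up to 6 per direction and contrast among called intervals whose groups did not overlap and of which some group reached 20 CPM (overlap allowed for the 2 contrasts of enrichments), and the longest and shortest. Not all of them are printed. Alternatives were other scalings, DESeq2 1.42.0, no filter, fewer groups, a block by replicate letter, and leaving out libraries or groups of near-equal intervals.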

Additional observations from a re-analysis of the deposited data

Results flagged for a closer look

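These results are those in which an effect differed between strains by a test of the difference itself (edgeR, the enrichment in an IP over its input set against that in another strain). Between the deletion and the intact WAGO-1 strain, enrichment was called higher for 2 long intervals and lower for 7, against 1.55% and 0.661% of all features. Most of these calls were lost when 1 library was left out, as described above, and the split turned with the scaling. Those called higher were III:6572490-6574774 (1.78) and II:3354125-3356987 (0.73). Those called lower were II:14991527-14994728 (-2.24), V:8872914-8875321 (-0.84), V:8830820-8833227 (-0.83), II:14687826-14693449 (-0.78), II:2157812-2160282 (-0.68), II:2157035-2157789 (-0.52) and III:12371427-12372050. The last, inside rpt-6 (a proteasome subunit gene), was named only to complete the 7. It had 3 reads in the deletion IP and 3 in the deletion input, against 10 in the WAGO-1 IP and 0 in the WAGO-1 input, and no fold is given for it. The pair V:8872914-8875321 and V:8830820-8833227 are 2407 bases each with 29810 and 29946 counts, so they may share reads. For II:14991527-14994728 the value without replicate A of the deletion input was -0.98.

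Between WAGO-3 and WAGO-1, 141 intervals had the higher enrichment with WAGO-3 and 26 with WAGO-1, against 12.4% and 15.0% of all features. Those named on the first side were V:4946065-4946869 (6.37), V:14359562-14361420 (4.03), V:5777551-5778449 (3.57), V:17514658-17519419 (3.22), II:12845611-12846160 (3.06) and II:10034106-10035001 (3.03). For V:4946065-4946869 the fitted value depends on a WAGO-3 input with 0 reads: its level was 18.5, 19.6 and 24.2 CPM in the WAGO-3 IPs, at least 6.84-fold above the floor of that input. Its call was lost with DESeq2 (3.32, adjusted p = 0.054), with no filter (6.34, adjusted p = 0.10) and without replicate B of the WAGO-1 input (5.76) or any replicate of the WAGO-3 input (6.43 each). That of II:12845611-12846160 was lost without any replicate of the WAGO-1 input (2.98, 2.97 and 3.22 for A, B and C) and without replicate A (2.57) or C (3.13) of the WAGO-3 input, and also with total counts (2.86, adjusted p = 0.065), all counted reads (2.87, 0.070), relative log expression factors (2.97, 0.055) and no filter (3.11, 0.16). Those named on the other side were III:3276149-3277198 (-5.14), II:7439552-7444215 (-4.17), II:8229893-8230762 (-2.76), II:2554266-2555346 (-2.65), II:850782-857896 (-2.01) and V:9428460-9435492 (-1.83). The call of II:2554266-2555346 was lost without any replicate of the WAGO-1 IP (-2.23, -2.32 and -2.24 for A, B and C), without replicate A (-2.32) or B (-2.08) of the WAGO-3 IP, A (-2.57) or C (-2.17) of the WAGO-3 input, or B (-2.33) or C (-2.08) of the WAGO-1 input, with no filter (-2.59, adjusted p = 0.11) and with only the groups compared (-2.26, adjusted p = 0.052). That of V:9428460-9435492 was lost without replicate B of the WAGO-3 IP (-1.22).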

How the results depend on the processing

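Of 246 recomputed counts and shares, 183 stayed within 1.5 times the reported count or 1 SD of the reported share and 63 did not. Each is given as higher then lower calls, and the cause was not tested. These are counts of long intervals. Shares of all features move with the scaling too, and are given above or here for total feature counts and all counted reads. For the other alternatives, leaving out libraries among them, they are not given. Those counts thus do not set the long intervals apart. Total feature counts gave 140 and 93 for the WAGO-1 IP against its input, 108 and 53 for the deletion IP against its input, 200 and 38 for the WAGO-3 IP against its input, 47 higher between the WAGO-1 IPs, 21 higher between their inputs, and 41 and 1 for the change of enrichment. All counted reads gave 58 higher between the WAGO-1 IPs, 1 higher between inputs (against 13.3% of all features), and 134 and 1 for the change. Relative log expression factors gave 1 higher between the IPs and 5 for the change, and DESeq2 gave 1 and 4. Without the filter 14 were higher between the IPs, and 42 higher and 0 lower in the change. A fit of only the groups compared gave 24 lower for the WAGO-1 IP against its input, and 86 and 1 for the change. Without replicate A of both WAGO-1 IPs, 19 were higher between them. Without the groups of near-equal length, so with fewer intervals counted, 165 were lower between inputs, 4 lower in the change, and 87 and 16 for WAGO-3 against WAGO-1. The last 2 alternatives were chosen after seeing the data. As a share of all counted reads, long intervals made up 4.22% in the deletion IP, 8.70% in the WAGO-3 IP and 11.9% in the WAGO-1 IP, and in the inputs 0.738% (deletion), 2.26% (WAGO-3) and 4.27% (WAGO-1).

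Leaving out 1 library gave 273 to 330 and 7 to 25 for the WAGO-1 IP against its input, 190 to 216 and 12 to 18 for the deletion IP, 313 to 332 and 12 to 17 for the WAGO-3 IP, 1 to 18 and 324 to 356 between the WAGO-1 IPs, 0 to 2 and 234 to 249 between their inputs, 1 to 70 and 0 to 6 for the change, and 122 to 199 and 16 to 27 for WAGO-3 against WAGO-1. The shares ranged over 6.27% to 6.30%, 13.3% to 13.4%, 19.1% to 19.4%, 3.95% to 4.04%, 7.82% to 8.00% and 16.0% to 16.1% in the same order of groups as above.

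Of 1477 recomputed folds of named intervals, 1376 kept direction and call, 88 lost the call and 13 reversed. With total feature counts V:17137383-17141676 (WAGO-1 IP against its input) became -0.14 and V:11487340-11488176 (WAGO-3 IP against its input) -0.18. In the change of enrichment, all counted reads gave 0.21 for V:8872914-8875321, 0.22 for V:8830820-8833227, 0.28 for II:14687826-14693449, 0.37 for II:2157812-2160282 and 0.53 for II:2157035-2157789. A fit of only the groups compared gave 0.048 and 0.20 for the last 2. Without the filter II:2157035-2157789 became 0.012, and without replicate A, B or C of the WAGO-1 IP 0.10, 0.03 and 0.02, within a range of -0.60 to 0.10 over single libraries left out.

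The replicate letters did not pair the libraries: deviations of libraries with the same letter correlated at -0.03 to 0.14. With a replicate block the IPs against inputs gave 335 and 14 (WAGO-1), 215 and 14 (deletion) and 336 and 16 (WAGO-3). The WAGO-1 IPs gave 3 and 357 and their inputs 0 and 253, the change 3 and 7, and WAGO-3 against WAGO-1 145 and 26. Input depth limits what can be shown there, with a floor of 4.04 CPM in the deletion input against 2.06 CPM in the WAGO-1 input.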
